A study of Homo sapiens with 6 samples.

Results

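The C/EBP transcription factor family was described across 6 RNA-seq libraries of MUTZ3, a human acute myelomonocytic leukaemia cell line that carries inv(3). Members were taken by gene name: CEBPA, CEBPB, CEBPD, CEBPE and CEBPG, 5 of the 27722 genes that the transcripts of the tables could be assigned to. Cells were studied 72 h after retroviral transduction. The 2 PLDLS libraries carried p50MX-3xFLAG-3xNLS-4xPLDLS-Zeo, whose peptide, per the labels, blocks the contact of EVI1 with CTBP. The 2 PLASS libraries carried p50MX-3xFLAG-3xNLS-4xPLASS-Zeo, a related peptide with no such effect per the labels. The 2 empty vector (EV) libraries carried different plasmids, p50MX-3xFLAG in replicate 1 and p50MX-Zeo in replicate 2. All 6 libraries share the line, its inv(3) and transduction, and none is untransduced. Nothing in the labels states that the replicates were cultured apart, so each p-value reflects only how far these libraries differ, which could be technical.

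C/EBP proteins are basic leucine zipper (bZIP) factors that bind DNA as pairs, with one another or with other bZIP proteins. C/EBPα is the lineage factor of the step from common myeloid to granulocyte and monocyte progenitors, it restrains the cell cycle, and its gene is recurrently mutated in acute myeloid leukaemia. C/EBPε acts later, when granulocytes mature and form their secondary granules. C/EBPβ and C/EBPδ are known from inflammation and stress granulopoiesis, and C/EBPγ, which lacks a classical activation domain, pairs with ATF4 in the response to amino acid shortage. EVI1, a product of MECOM that inv(3) activates, recruits the corepressor CTBP through a PLDLS motif.

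The tables summed to 5582078 estimated reads in the smallest library, PLDLS replicate 2, and to 35800826 in the largest, EV replicate 1. Myeloid blast markers were abundant in every library (summed to 1050 to 1520 CPM, reads scaled to 1000000 per library), as the label of the line says. Monocyte and macrophage markers summed to 203 to 300 CPM with MARCO at 0 throughout, and dendritic cell markers to 20.4 to 34.3 CPM. Erythroid markers summed to 0.774 to 2.08 CPM with HBB and HBA1 at 0, lymphoid ones to 5.11 to 9.40 CPM with MS4A1 at 0, and those of fibroblasts and epithelium to 4.53 to 8.82 CPM with DCN at 0. Megakaryocyte markers summed to 108 to 205 CPM with PF4 at 0. Of the 5 dendritic cell markers tested, CD207 of Langerhans cells rose with PLDLS against PLASS with the replicate block described below (log2 2.58 ± 0.26, SE, edgeR adjusted p = 0.00575). The other 4 had negative differences and were not called (CD1A -0.80, CD1C -0.57, CLEC10A -1.39, CLEC9A -1.13), and the median of the 5 was -0.80. The part of these genes in the results below was not tested. In bulk RNA, more cells that express a gene and more RNA per cell cannot be told apart.

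CEBPA and CEBPE, the factors of granulocyte commitment and of late granulocyte maturation, were the members with the most RNA in PLDLS relative to both controls. CEBPA averaged 199 ± 50.8 CPM (SD, n = 2) with PLDLS, 72.5 ± 3.47 with PLASS and 102 ± 20.5 with EV. CEBPE was about as much higher in relative terms, from a level far below that of CEBPA. CEBPD differed less, CEBPB was higher in replicate 2 than in replicate 1 of PLDLS and PLASS but not of EV, and CEBPG was at nearly the same level in the PLDLS and PLASS libraries of each replicate number.

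On the length-corrected TPM scale of Salmon, the mean over the 6 libraries fell in the order CEBPA, CEBPG, CEBPB, CEBPD and CEBPE. CEBPA stood at 180 ± 31.2 TPM (SD, n = 2) in PLDLS, 68.1 ± 7.75 in PLASS and 97.3 ± 30.6 in EV. The CEBPG level was 70.1 ± 23.2 TPM in PLDLS, 70.1 ± 23.0 in PLASS and 62.3 ± 5.22 in EV, which overlaps that of CEBPA. CEBPB stood at 45.5 ± 19.8, 35.7 ± 12.4 and 25.3 ± 3.96 TPM, and CEBPD at 35.6 ± 0.457, 27.5 ± 1.79 and 31.8 ± 1.83 TPM, in the same order of groups. Over the 6 libraries the ranges of CEBPA and CEBPG, of CEBPG and CEBPB, and of CEBPB and CEBPD overlapped. CEBPE, at 9.63 ± 0.164, 4.05 ± 0.0494 and 3.54 ± 0.606 TPM, was below all the others in every library, so 1 of the 4 neighbouring pairs was separated. Single libraries departed from the order: CEBPG exceeded CEBPA in PLASS replicate 2 (86.3 against 62.6 TPM), and CEBPD exceeded CEBPB in 4 of the 6 libraries.

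**Figure D1:**
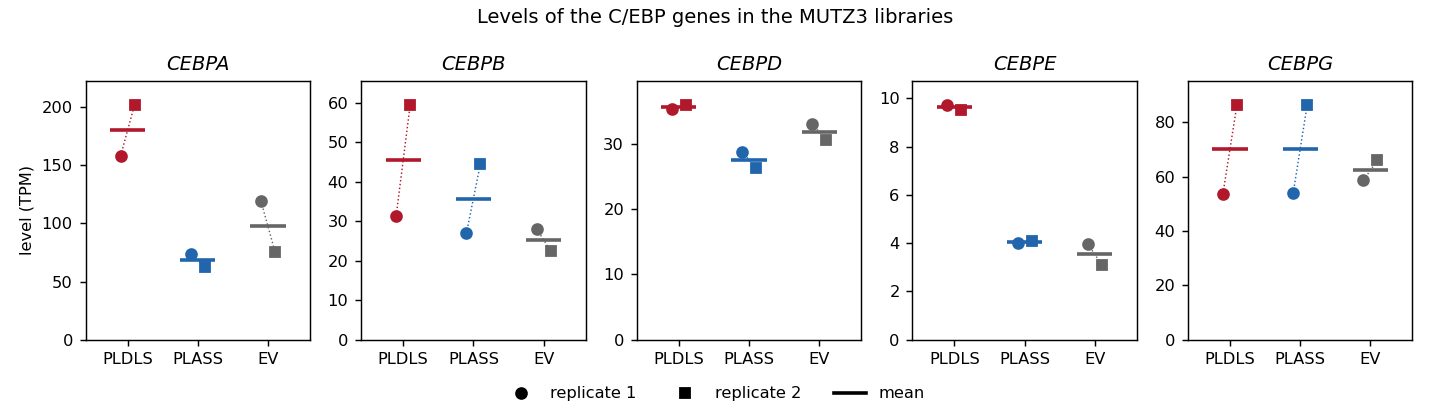
Level of each C/EBP gene in TPM (y axis, a scale of its own per gene, from 0) in the PLDLS, PLASS and EV libraries (x axis); circles are replicate 1, squares replicate 2, bars the mean of 2. Both PLDLS libraries lie above all others for CEBPA (158 and 202 TPM), CEBPD and CEBPE (9.74 and 9.51 TPM), while CEBPG separates by replicate number in PLDLS and PLASS.

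The makeup of the family pool differed with these levels. The 5 genes summed to 288 and 394 TPM in PLDLS replicates 1 and 2, 187 and 224 TPM in PLASS, and 243 and 198 TPM in EV. CEBPA held 54.8 and 51.3% of the pool with PLDLS, 39.3 and 28% with PLASS, and 49.0 and 38.3% with EV. The share of CEBPG ran the other way, with 18.6 and 22.0%, 28.7 and 38.6%, and 24.2 and 33.4%. CEBPE never held more than 3.38% of it. Both PLDLS libraries thus had the largest CEBPA share and the smallest CEBPG share of the 6, and within each group the CEBPA share was lower in replicate 2.

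**Figure D2:**
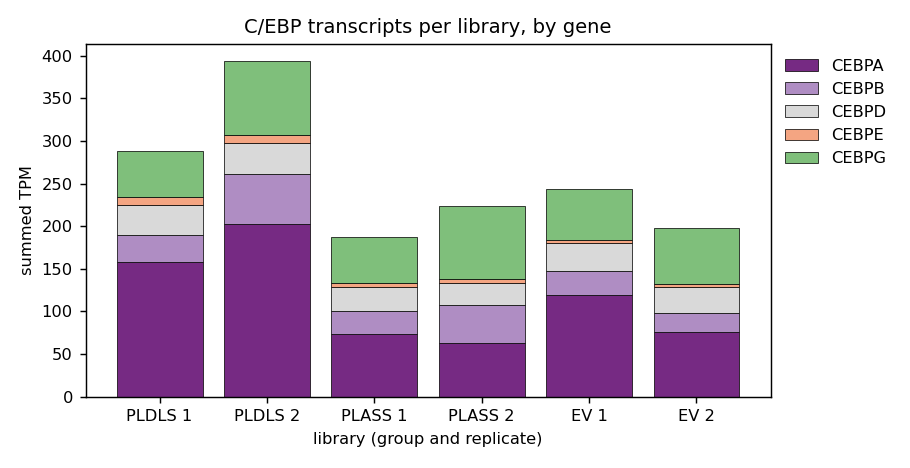
Summed TPM of the 5 C/EBP genes (y axis, from 0) in each library (x axis, group and replicate), stacked by gene. PLDLS replicates 1 and 2 reach 288 and 394 TPM, against 187 to 243 TPM in the other 4 libraries, and CEBPA is the largest segment in all but PLASS replicate 2.

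The level of CEBPA relative to CEBPB was followed as well, since C/EBPβ can in part replace C/EBPα in myeloid cells. In TPM, CEBPA exceeded CEBPB 5.02-fold and 3.4-fold in PLDLS replicates 1 and 2, 2.74-fold and 1.41-fold in PLASS, and 4.24-fold and 3.37-fold in EV. The ratio was lowest in the PLASS libraries and in replicate 2 of each group, and PLDLS and EV overlapped. The mean log2 ratio in PLDLS less that in PLASS was 1.07 (exact two-sided permutation test, p = 0.333, the smallest that 2 against 2 libraries allow). It was 0.13 for PLDLS less EV (exact p = 0.667) and -0.94 for PLASS less EV (exact p = 0.333).

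CEBPA lies on the minus strand of chromosome 19 (GRCh38, 33299934 to 33302534) and encodes C/EBPα. Its promoter is shown with that of CEBPE because edgeR called these 2 members with PLDLS in the fit with the replicate block described below. By group alone it called neither. The 250 bases before the start (chr19:33302535-33302784, minus strand, RefSeq, GRCh38.p14, 5′ to 3′) hold 81.2% G and C, and capitals mark a TATAAA match at -30 to -25.
CEBPA: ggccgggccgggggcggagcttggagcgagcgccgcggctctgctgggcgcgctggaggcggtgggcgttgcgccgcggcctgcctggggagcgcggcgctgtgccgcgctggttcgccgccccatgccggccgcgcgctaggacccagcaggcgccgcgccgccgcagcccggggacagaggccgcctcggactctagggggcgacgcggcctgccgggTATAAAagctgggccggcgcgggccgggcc
In all, 10.7% of 35116 promoter windows of that length hold TATAAA on either strand. TATAAA was added to the motif list, and GAGGAA replaced another ETS motif, after the promoters were read. The shares therefore give no test of these matches. The window held no match to the other motifs searched on both strands, which were TTNNGNAA (the core of the C/EBP consensus, 33.2% of windows), CCAAT (32.0%), AGATAA (part of EVI1 and GATA motifs, 9.17%), TGTGGT (RUNX factors, 11%), GAGGAA (the PU box, 23.6%) and TGATGNAAT (paired C/EBP and ATF, 0.888%). A match is a description of letters, not a bound site.

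Reads on CEBPA were 163 and 235 CPM in PLDLS replicates 1 and 2, 74.9 and 70.0 in PLASS, and 116 and 87.5 in EV. Both PLDLS libraries were above the other 4, and both PLASS libraries were below both EV libraries. Differences were tested with the edgeR quasi-likelihood test over 14631 genes, and a gene was called at a Benjamini-Hochberg adjusted p under 0.05. By group alone, CEBPA was 2.74-fold higher with PLDLS than with PLASS, log2 1.46 ± 0.24 (SE), and was not called (edgeR adjusted p = 0.187). With the replicate number as a block, which compares libraries of 1 number, the difference was log2 1.45 ± 0.21 and CEBPA was called (edgeR adjusted p = 0.0126). The estimate barely moved, and its error shrank. Within replicate 1 the difference was 1.12 and within replicate 2 it was 1.75 on the log2 scale.

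Against EV, CEBPA was higher by log2 0.96 ± 0.24 by group alone (edgeR adjusted p = 0.232) and by 0.96 ± 0.20 with the block (edgeR adjusted p = 0.0350). Here the replicates differed more, at log2 0.49 and 1.42. The call ended without PLDLS replicate 2 (log2 0.55, edgeR adjusted p = 0.243) and without EV replicate 2 (log2 0.62, edgeR adjusted p = 0.0824). PLASS against EV differed by -0.49 ± 0.24 by group alone and -0.50 ± 0.20 with the block, with edgeR adjusted p of 1 in both. CEBPA therefore lay below EV in both PLASS libraries, by log2 -0.64 and -0.32, without passing the test. The divergent CEBPA-DT, whose span begins 286 bases from that of CEBPA, had 0.939 to 2.6 CPM and differed by 0.21 ± 0.51 between PLDLS and PLASS with the block (edgeR adjusted p = 0.959).

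CEBPE lies on the minus strand of chromosome 14 (GRCh38, 23117306 to 23119255) and encodes C/EBPε. Its 250 promoter bases (chr14:23119256-23119505, minus strand, RefSeq, GRCh38.p14, 5′ to 3′) hold 57.2% G and C, the lowest of the 4 windows read. Capitals mark a GAGGAA match at -41 to -36, the core of sites for ETS factors such as PU.1, and no other motif of the list was found.
CEBPE: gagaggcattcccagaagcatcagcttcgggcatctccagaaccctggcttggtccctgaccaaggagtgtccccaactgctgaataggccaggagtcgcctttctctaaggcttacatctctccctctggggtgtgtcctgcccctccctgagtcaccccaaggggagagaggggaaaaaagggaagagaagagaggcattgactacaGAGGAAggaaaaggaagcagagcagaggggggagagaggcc
The windows of CEBPA and CEBPE shared no motif of the list, but their matches are to motifs put on it after the promoters were read.

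Reads on CEBPE were 6.11 and 7.05 CPM in PLDLS, 2.55 and 2.76 in PLASS, and 2.34 and 2.21 in EV, from 34 to 102 reads per library. The PLDLS libraries did not overlap either control, and the replicates of each group lay close together. CEBPE was 2.47-fold higher with PLDLS than with PLASS, log2 1.30 ± 0.33 by group alone (edgeR adjusted p = 0.420) and 1.30 ± 0.25 with the block (edgeR adjusted p = 0.0396). The same-number differences were 1.26 and 1.35. Leaving out any library of the comparison ended this call while the difference stayed between 1.21 and 1.41. The edgeR adjusted p was 0.167 and 0.155 without PLDLS replicate 1 or 2, and 0.315 and 0.127 without PLASS replicate 1 or 2. In such fits 1 arm holds 1 library, which is assumed to vary like the other groups. It was also lost by DESeq2 with the block (adjusted p = 0.109) and when every library was thinned to the smallest (edgeR adjusted p = 0.0907).

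Against EV, CEBPE was 2.83-fold higher with the block, log2 1.5 ± 0.24 (edgeR adjusted p = 0.0117), against 1.52 ± 0.33 by group alone (edgeR adjusted p = 0.177). The same-number differences were 1.38 and 1.67. That call ended without PLDLS replicate 1 (log2 1.61, edgeR adjusted p = 0.0682). PLASS and EV differed by 0.21 ± 0.25 with the block (edgeR adjusted p = 1), less than its error.

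CEBPB (chromosome 20, 50190583 to 50192690, plus strand) encodes C/EBPβ. Its span shares 1487 bases with that of the antisense CEBPB-AS1. The libraries were not stranded, so reads from bases that both transcripts hold cannot be told apart. How many such exon bases there are was not measured. CEBPB had 26.5 and 54.9 CPM in PLDLS, 21.9 and 40.6 in PLASS, and 22.6 and 21.0 in EV. Replicate 2 was the higher one in PLDLS and PLASS but not in EV, and the PLDLS and PLASS libraries overlapped. With the block, PLDLS differed from PLASS by log2 0.35 ± 0.26 (edgeR adjusted p = 0.745) and from EV by 0.77 ± 0.26 (edgeR adjusted p = 0.181). Without EV replicate 1, the second difference was 1.34 (edgeR adjusted p = 0.000196) and that of PLASS from EV was 0.99 (edgeR adjusted p = 0.00600), so both were then called. In that setting calls over all genes also rose, to 2143 from 621 in PLDLS against EV and to 559 from 2 in PLASS against EV. Without EV replicate 2 the CEBPB differences were 0.25 and -0.09. CEBPB-AS1 had 0.995 to 1.32 CPM and differed by 0.29 ± 0.40 between PLDLS and PLASS with the block (edgeR adjusted p = 0.909).

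CEBPG, on the plus strand 71.2 kb from CEBPA on chromosome 19 (33373709 to 33382686), encodes C/EBPγ. Its promoter bases (chr19:33373459-33373708, plus strand, RefSeq, GRCh38.p14, 5′ to 3′) are shown as those of a neighbour that did not move with CEBPA. They hold 76.0% G and C, and capitals mark ATTGG, which is CCAAT on the opposite strand, at -85 to -81 and -24 to -20.
CEBPG: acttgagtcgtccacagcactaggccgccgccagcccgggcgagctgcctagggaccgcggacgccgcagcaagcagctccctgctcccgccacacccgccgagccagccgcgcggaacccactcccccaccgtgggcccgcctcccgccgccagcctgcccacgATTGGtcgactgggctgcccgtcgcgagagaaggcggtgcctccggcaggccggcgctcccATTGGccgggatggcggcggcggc
The CEBPG window held no other motif of the list, and the CEBPB window held none at all.

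CEBPG had 71.4 and 110 CPM in PLDLS, 72.2 and 116 in PLASS, and 68.4 and 97.4 in EV. Each replicate 2 was above each replicate 1, and the groups overlapped. PLDLS differed from PLASS by log2 -0.05 ± 0.13 with the block (edgeR adjusted p = 0.963), and the same-number differences were -0.02 and -0.08. The differences of PLDLS and PLASS from EV were 0.12 ± 0.13 (edgeR adjusted p = 0.733) and 0.16 ± 0.12 (edgeR adjusted p = 1). Most CEBPG reads were assigned to NM_001806 in every library, and the other transcript, NM_001252296, stood at 0 to 5.54 TPM. Its part varied, with 150 reads beside 1351 for NM_001806 in PLASS replicate 1 and 0 beside 1430 in PLASS replicate 2.

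CEBPD, an intronless gene on chromosome 8 (47736913 to 47738164), encodes C/EBPδ. Its CPM were 16.5 and 18.6 in PLDLS, 13 and 13.4 in PLASS, and 14.9 and 15.9 in EV. The 3 groups did not overlap, with PLDLS highest and PLASS lowest. The difference of PLDLS from PLASS was log2 0.40 ± 0.17 with the block (edgeR adjusted p = 0.411), that from EV 0.18 ± 0.17 (edgeR adjusted p = 0.673), and that of PLASS from EV -0.22 ± 0.17 (edgeR adjusted p = 1). None of these was called.

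**Figure D3:**
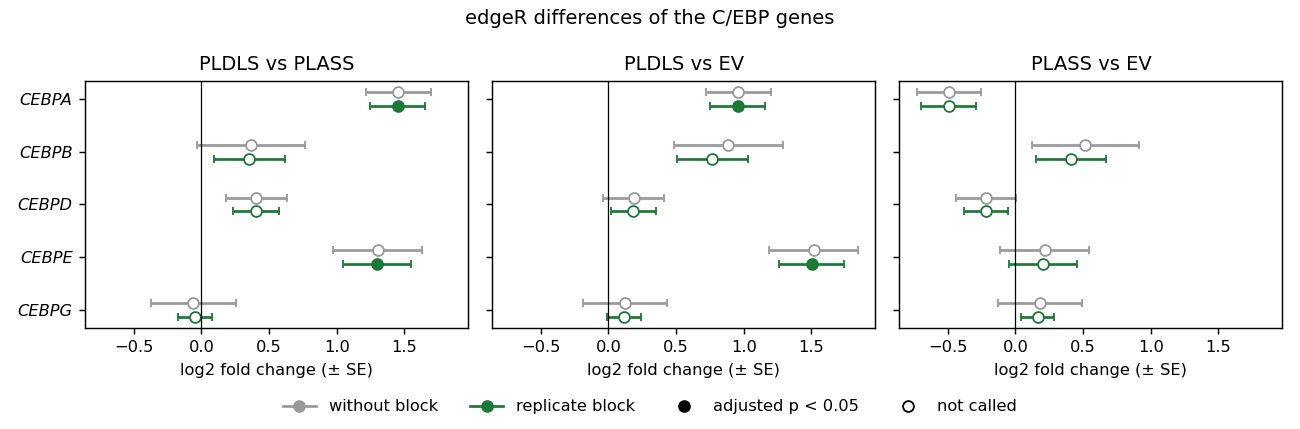
edgeR log2 fold change of each C/EBP gene (x axis, bars ± SE) in the 3 comparisons, by group alone (grey) and with the replicate block (green); filled points have an adjusted p under 0.05. CEBPA and CEBPE are filled with the block in both PLDLS comparisons (1.45 and 1.30 against PLASS), and no member is filled for PLASS against EV.

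Over the family, edgeR with the block called 2 of the 5 members in PLDLS against PLASS, both higher, where it called 2.03% of all tested genes (1.52% as higher). By group alone edgeR called none of the members and 0% of all genes. At an unadjusted p under 0.05 the members were then 2, with 4.93% of all genes, DESeq2 called CEBPA only, and limma-voom none. With the block 3 members, CEBPD added, had an unadjusted p under 0.05, as had 11.5% of all genes. The median member difference was log2 0.40 with the block, beside -0.006 over all genes. Libraries of the groups did not overlap for 3 members, all higher (CEBPA, CEBPD and CEBPE), as for 14.9% of all genes.

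In PLDLS against EV, which uses the same PLDLS libraries, the block gave 2 calls, again CEBPA and CEBPE as higher, with 4.24% of all genes called (3.24% as higher). By group alone edgeR called no member and 0.0137% of all genes, 2 members had an unadjusted p under 0.05 (7.16% of genes), DESeq2 called 2 and limma-voom none. For 4 members, all but CEBPG, both PLDLS libraries were above both EV libraries, as for 16.4% of all genes. MECOM itself differed there: it had 605 and 519 CPM in PLDLS, 531 and 342 in PLASS, and 129 and 88.2 in EV, and it was called against EV with PLDLS (log2 2.40 ± 0.15) and with PLASS (2.0 ± 0.15) in the blocked edgeR test. Its part in the differences of C/EBP genes from EV was not tested. Whether any reads assigned to MECOM came from the constructs, which carry copies of PLDLS or PLASS, was not tested either.

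In PLASS against EV no member was called by edgeR in either form, by DESeq2 or by limma-voom, beside 0% and 0.0137% of all genes by edgeR by group alone and with the block. At an unadjusted p under 0.05 there was no member by group alone (0.69% of genes) and 1, CEBPA, with the block (3.35%). The libraries of PLASS and EV did not overlap for 3 members (CEBPA and CEBPD lower, CEBPE higher), as for 6.6% of all genes on the lower and 8.13% on the higher side.

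When PLDLS was set against the mean of both controls, CEBPA differed by log2 1.20 ± 0.17 with the block (edgeR adjusted p = 0.00555) and CEBPE by 1.40 ± 0.21 (edgeR adjusted p = 0.00719). These 2 members were called among 4.58% of all genes. By group alone the values were 1.21 ± 0.20 (edgeR adjusted p = 0.0676) and 1.41 ± 0.28 (edgeR adjusted p = 0.0990), with no member called among 0.321% of genes. CEBPB differed by 0.56 ± 0.22 with the block (edgeR adjusted p = 0.255), CEBPD by 0.29 ± 0.15 and CEBPG by 0.03 ± 0.11.

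The replicate numbers separated other members of the family. In the blocked edgeR test of replicate 2 against replicate 1, CEBPG was higher by log2 0.60 ± 0.10 (edgeR adjusted p = 0.00882), 1 of 5 members, where 17.5% of all genes were called (7.87% as higher). The call ended without PLASS replicate 1 (edgeR adjusted p = 0.0748) or PLASS replicate 2 (edgeR adjusted p = 0.0670). CEBPB was higher by as much, 0.61 ± 0.21, with more spread (edgeR adjusted p = 0.0783), and it was called by DESeq2 (adjusted p = 0.0288) and in edgeR without either EV library. CEBPA, CEBPD and CEBPE differed by 0.00 ± 0.17, 0.10 ± 0.14 and 0.08 ± 0.20. Other lists differed between the replicate numbers too. Replicate 2 was called higher for 10 of the 12 E2F target genes of the cell cycle, 6 of 15 bZIP genes, 5 of 12 inflammatory genes and 4 of 11 amino acid and stress genes, with none of these lower. Of 21 myeloid transcription factor genes 4 were higher and 8 lower, of 8 primary granule genes 4 and 1, of 8 late granule genes 2 and 2, of 9 regulators 2 and 1, and of 6 cytokine receptor genes 1 and none. The part of these genes in the levels of CEBPG and CEBPB was not tested.

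The other genes of the C/EBP network were taken from lists that were chosen with earlier results of these data known, so their counts are descriptions. Unless another test is named, calls in these lists are those of edgeR with the block. That test called 2.03% of all genes in PLDLS against PLASS (1.52% as higher) and 4.24% against EV (3.24% as higher). By group alone edgeR called no gene of these lists in either comparison, beside 0% and 0.0137% of all genes. Among C/EBP relatives and neighbours none of 5 was called in PLDLS against PLASS by the blocked edgeR test, none reached an unadjusted p of 0.05, and neither DESeq2 nor limma-voom called any. DDIT3, the stress-induced bZIP relative CHOP, had 4.27 to 6.98 CPM and differed by log2 -0.47 ± 0.24 (edgeR adjusted p = 0.552). CEBPZ, which shares the name but is no bZIP factor, had 106 to 226 CPM and differed by -0.15 ± 0.23, and CEBPZOS by -0.05 ± 0.24. The 9 tested regulators of C/EBP protein or mRNA spanned -0.20 for SKP2 to 0.27 for TRIB3, and none was called or had an unadjusted p under 0.05 with the block. They included TRIB1 (-0.09 ± 0.26) and COP1 (0.00 ± 0.13), which together lead to the breakdown of C/EBPα, CELF1 (-0.16 ± 0.13) and CALR (-0.15 ± 0.16), which act on C/EBP translation, and FBXW7, PCBP2 and GSK3B (0.02, -0.10 and -0.04). TRIB2 was below the filter on low counts.

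Among 15 bZIP genes that can pair with C/EBP factors or share their class, 1 rose and 1 fell in PLDLS against PLASS, with a median of -0.09. The block called 2.03% of all genes there. BATF, a factor of lymphoid and dendritic cells, rose by log2 1.11 ± 0.22 (edgeR adjusted p = 0.0401) and ATF5 fell by 0.92 ± 0.17 on that scale (edgeR adjusted p = 0.0350). Both calls ended when any PLDLS or PLASS library was left out, with edgeR adjusted p up to 0.235 and 0.242, and with all libraries kept both ended after thinning and that of BATF by DESeq2. Against EV, FOSL2 of the AP-1 group rose by 1.62 ± 0.25 (edgeR adjusted p = 0.00980), and ATF5 fell by 1.11 ± 0.17 (edgeR adjusted p = 0.00980). BATF, higher there by 0.78 ± 0.21, was not called (edgeR adjusted p = 0.0823).

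Of 21 myeloid transcription factor genes that act with or against C/EBP factors, 2 rose and 2 fell in PLDLS against PLASS with the block, and the median was 0.01. Of all genes, 2.03% were called there. GFI1B, a factor of erythroid and megakaryocyte cells, had 118 and 90.4 CPM in PLDLS, 50.2 and 17.4 in PLASS, and 48.8 and 25.4 in EV, and rose by log2 1.76 ± 0.24 (edgeR adjusted p = 0.0110). HOXA9, a stem and progenitor factor, rose by 0.73 ± 0.14 (edgeR adjusted p = 0.0388). Its groups overlapped, with 159 and 74 CPM in PLDLS, 106 and 40 in PLASS, and 127 and 45.6 in EV. GFI1, which promotes granulocyte fate, fell by 1.15 ± 0.21 (edgeR adjusted p = 0.0319), and IRF8, the monocyte and dendritic cell factor, fell by 2.50 ± 0.42 from low counts (0.479 to 4.30 CPM, edgeR adjusted p = 0.0223). Against EV with the block, GFI1B, GFI1 and IRF8 were called in the same directions. HOXA9, higher there by 0.51 ± 0.14, was not called (edgeR adjusted p = 0.0899). By group alone edgeR called none of the 21. The edgeR adjusted p was then 0.616 for GFI1B, 0.299 for GFI1 and 0.420 for IRF8, and HOXA9 differed by 0.68 ± 0.60. The GFI1B call held in all 16 blocked settings run, those of GFI1, IRF8 and HOXA9 in 13, 12 and 12, and each loss involved a PLDLS or PLASS library left out or, for IRF8, thinning.

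Late granule and maturation genes linked to C/EBPε, not all of them granule genes, were largely silent. Of the 17, 8 passed the filter on low counts, and LTF and LCN2 were at 0 in every library. In PLDLS against PLASS, 4 of the 8 rose by edgeR with the block and none fell, beside 1.52% of all genes called as higher. Differences were positive for 6 of the 8 and negative for MMP9 (-0.40 ± 0.21) and CEACAM8 (-0.30 ± 0.48). S100A8 had 18.4 and 50.7 CPM in PLDLS, 6.39 and 9.41 in PLASS, and 6.11 and 15.5 in EV, and rose by log2 1.96 ± 0.24 (edgeR adjusted p = 0.00853). Its partner in calprotectin, S100A9, rose by 1.51 ± 0.18 (edgeR adjusted p = 0.00853), and PADI4, a protein-arginine deiminase, by 1.38 ± 0.21 (edgeR adjusted p = 0.0179). MGAM, a maltase-glucoamylase found in mature granulocytes, rose by 0.74 ± 0.15 (edgeR adjusted p = 0.0484), a call made in 9 of 16 blocked settings. It ended without any of the PLDLS or PLASS libraries (edgeR adjusted p up to 0.633) and, with all libraries, by DESeq2 size factors, upper-quartile scaling or thinning. That of PADI4 ended without PLDLS replicate 2 or PLASS replicate 1 (edgeR adjusted p up to 0.0948). None of the 8 was called by edgeR by group alone, with 6 at an unadjusted p under 0.05 (4.93% of all genes). By group alone 3 were called by DESeq2, beside 121 of 14631 genes, and none by limma-voom. A gene could pass the filter through its PLDLS level alone, so the count is no support for a change of the whole list.

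The list of primary granule genes also holds genes of eosinophil granules such as EPX and PRG2. It gave no blocked edgeR call among 8 tested of 11, and none by DESeq2 or limma-voom. At an unadjusted p under 0.05, 2 were higher and 3 lower (11.5% of all genes). EPX (log2 -0.97 ± 0.28) and PRG2 (-0.63 ± 0.16) were among those lower. MPO, the myeloperoxidase gene, had 49.4 to 147 CPM and differed by -0.12 ± 0.30. Among 6 cytokine receptor genes known downstream of C/EBPα, none was called in PLDLS against PLASS by edgeR with the block, by DESeq2 or by limma-voom, and 1 had an unadjusted p under 0.05. That was IL6R, with 242 and 294 CPM in PLDLS, 140 and 205 in PLASS, and 143 and 93.8 in EV (log2 0.64 ± 0.24, edgeR adjusted p = 0.314), which rose against EV (1.16 ± 0.24, edgeR adjusted p = 0.0314), though not without either PLDLS library (edgeR adjusted p up to 0.116). CSF3R, the receptor of granulocyte colony-stimulating factor, differed by -0.07 ± 0.28.

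Of 12 tested inflammatory genes linked to C/EBPβ and C/EBPδ, none rose and TNF fell, by log2 1.30 ± 0.26 (edgeR adjusted p = 0.0447), a call that ended without PLDLS replicate 2 or either PLASS library (edgeR adjusted p up to 0.245) and, with all libraries, with the length offset. Against EV, TNF differed by -0.87 ± 0.26 and was not called (edgeR adjusted p = 0.121). Of 11 amino acid and stress genes linked to ATF4 and C/EBPγ, ATF5 alone was called in PLDLS against PLASS, as lower. Against EV ATF5 fell and 2 rose. DDIT4, a stress-induced inhibitor of mTORC1, rose by 1.81 ± 0.31 (edgeR adjusted p = 0.0151), which ranged from 1.15 without EV replicate 2 to 2.57 without EV replicate 1. SLC7A11, the cystine transporter gene, rose by 1.34 ± 0.24 (edgeR adjusted p = 0.0189), a call that ended without PLDLS replicate 1 (edgeR adjusted p = 0.132). In PLASS against EV with the block, DDIT4 differed by 1.29 ± 0.31 (edgeR adjusted p = 0.751) and SLC7A11 by 1.36 ± 0.245 (edgeR adjusted p = 0.272). Between PLDLS and PLASS they differed by 0.53 ± 0.30 and -0.02 ± 0.242. For SLC7A11 the direction changed with the replicate number. It had 59.5 CPM in PLDLS and 41.8 in PLASS in replicate 1, and 119 and 166 in replicate 2. The 12 E2F target genes, a programme that C/EBPα is known to restrain, all had negative differences in PLDLS against PLASS (median -0.23, beside -0.006 over all genes). None of them was called by the blocked edgeR test, by DESeq2 or by limma-voom. An unadjusted p under 0.05 was found for 3 of the 12, beside 11.5% of all genes. Within a replicate number the sign did not always hold: in replicate 2, CCNA2 had 110 CPM with PLDLS and 102 with PLASS. The share of all genes with a negative difference was not counted.

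Genes whose profile over the 6 libraries was most like that of a member were found by the root-mean-square (RMS) difference of centred log2 CPM among genes with a mean of at least 5 CPM. For CEBPA these were SH2D2A, a T cell adaptor gene, at 0.153, then PIP5K1B, RAB11FIP5, RENBP and TUBA4A at up to 0.208, where the median gene was at 0.663. For CEBPE they were EPDR1 (0.0990), the glucose transporter gene SLC2A3 (0.110), SIGLEC12, the calpain gene CAPN2 and PLEKHG3 (0.131), beside a median of 0.693. The nearest profiles to CEBPG were those of SLC25A33 (0.0296) and other genes that separate the replicate numbers, such as the translation factor gene EIF1. CEBPB lay nearest to RNF41 (0.125) and BHLHE40 (0.138), and CEBPD to the acid ceramidase gene ASAH1 (0.0465) and UBE2J1. Within the family, CEBPA and CEBPE were each other's nearest member (0.329), a wider gap than to any of the 5 genes named for either.

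**Figure D4:**
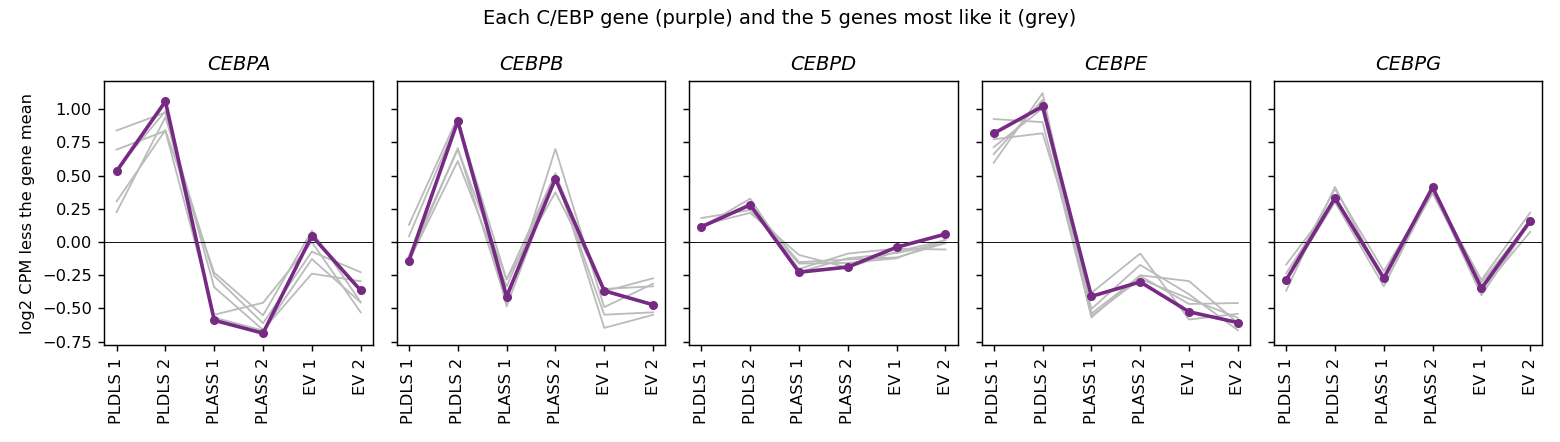
Centred log2 CPM (y axis) over the 6 libraries (x axis) for each C/EBP gene (purple) and the 5 genes with the smallest RMS difference from it (grey). CEBPA and CEBPE are high in both PLDLS libraries, CEBPG is higher in replicate 2 of every group, and CEBPB in replicate 2 of PLDLS and PLASS but not of EV.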

How the data were processed

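Non-stranded libraries were made from poly-A RNA, per the labels. The submitters' processing notes list bcl2fastq 1.8.4, Salmon 0.3.1 and the hg38 build. Salmon's options, the annotation release and the read layout were not given in the sources used here. The deposited estimated counts per RefSeq transcript are neither whole nor normalized, and the deposited TPM values are scaled per length and depth by Salmon, per the file headers.

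Of 69004 transcripts, 399 without a gene name (0.067 to 0.0891% of reads) were left out. Gene sums of estimated counts were rounded and tested with edgeR 4.0.16 in R 4.3.3 (TMM, filterByExpr, 1 term per group over all 6 libraries, 3 residual degrees of freedom), a procedure also tested on simulated data. CPM values are TMM-scaled, and each SE is the log2 difference divided by the square root of F. TPM was only summed per gene for levels and shares. Alternatives were the replicate block, DESeq2 1.42.0, limma-voom (limma 3.58.1), other scalings, filters, a length offset, thinning and left-out libraries. The labels do not say that a replicate number marks a shared day or batch. Deviations from the group means correlated between same-numbered libraries at 0.706 (PLDLS and PLASS), 0.536 (PLDLS and EV) and 0.596 (PLASS and EV) over 9322 genes, so the numbers were taken to pair them. The block left 2 residual degrees of freedom and lowered the biological coefficient of variation from 0.236 to 0.13. Named genes were the 5 members, all relatives and regulators, up to 4 genes with the smallest p of each list, and the 5 profiles nearest to each member. MECOM, MPO, CSF3R, LTF, LCN2, SLC7A11, the dendritic cell markers and marker genes at 0 were added after their values were seen. The members, lists and alternatives were chosen with earlier results of these data known, and after the promoters were read GAGGAA replaced another ETS motif and TATAAA was added. Promoter bases came from a RefSeq table of GRCh38.p14, in which 4 of 5 members were matched. Python 3.11.15 prepared the tables.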

Additional observations from a re-analysis of the deposited data

Results flagged for a closer look

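The change from replicate 1 to replicate 2 went opposite ways in different groups for 3 members, and none of these differences was tested. For CEBPA it was upward in PLDLS and downward in PLASS and EV, so that the log2 change in PLDLS exceeded that in PLASS by 0.62 and that in EV by 0.94. For CEBPB it was upward in PLDLS and PLASS and downward in EV, with a gap of 1.16 between PLDLS and EV and of 1.00 between PLASS and EV. For CEBPE the pattern of signs was that of CEBPB, with gaps of 0.29 and 0.20. The EV replicates carry different plasmids, and what this adds to the EV values cannot be told apart from the replicate number.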

How the results depend on the processing

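The replicate block decided most calls. Over all genes, edgeR called 0 by group alone and 297 with the block in PLDLS against PLASS, 2 and 621 in PLDLS against EV, 0 and 2 in PLASS against EV, and 47 and 670 for PLDLS against both controls. DESeq2 by group alone called 121, 267, 3 and 309. Of the 5 members, by group alone, DESeq2 and edgeR without a filter each called 1 in PLDLS against PLASS and 2 in the other 2 PLDLS comparisons. Without a filter, edgeR by group alone called 240, 471 and 503 of 21017 genes in these comparisons. With the block the count in PLDLS against PLASS was 2, and 1 by DESeq2 or after thinning, where 381 of 14631 and 283 of 12685 genes were called. Against EV and against both controls it was 2, or 3 against EV with no filter, where 1023 of 21017 genes were called. Left-out libraries with the block gave 1 to 2 against PLASS, 1 to 3 against EV and 1 to 3 against both controls, and 0 to 1 for PLASS against EV, while calls over all genes ran from 94 to 1067, 283 to 2143, 248 to 2077 and 10 to 559. Among left-out libraries, 3 members were called only without EV replicate 1, where all-gene calls were highest (2143 and 2077 of 14971 genes). For replicate 2 against 1, DESeq2 called 2 members, where it called 2237 of 14631 genes, and the member count varied when single libraries were left out. In CPM, 3 neighbouring pairs of the level order were separated. CEBPA kept its direction in every setting of the PLDLS comparisons, as did CEBPD and CEBPE. Other signs turned as follows, and the cause was not tested. Leaving out 1 library by group alone moved CEBPG between -0.407 and 0.320 (PLDLS against PLASS), -0.241 and 0.400 (PLDLS against EV), -0.226 and 0.483 (PLASS against EV) and -0.324 and 0.311 (both controls), with 2, 2, 2 and 3 of the 6 values turned. The others turned were 0.222, -0.114, -0.053, -0.122 and -0.088. By limma-voom by group alone CEBPG turned to -0.002 (both controls). With the block it turned to 0.005 (PLDLS against PLASS, without PLASS replicate 2) and -0.014 (both controls, without EV replicate 2). CEBPB moved between -0.247 and 0.877 (PLDLS against PLASS, turned also at -0.012) and between -0.016 and 0.895 (PLASS against EV, and -0.093 with the block). CEBPA turned between replicates, to -0.257 and -0.239 without a PLDLS library (highest 0.228). In PLDLS against PLASS, CEBPZ moved between -0.399 and 0.034 and turned with the block to 0.150 and 0.025 (lowest -0.535). CEBPA-DT turned with the block to -0.146 and -0.394 (highest 0.761). CEBPZOS moved between -0.550 and 0.367, turned also at 0.263, and turned to 0.431 and 0.420 (thinned), 0.007 (limma-voom), and 0.037 and 0.021 with the block (lowest -0.238). CEBPE, with 34 to 102 reads per library, is the member most limited by depth.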
